A study of Cucumis sativus with 6 samples.

Results

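Of the 1589 genes in the deposited table, 7 described as aquaporins were followed in female flower buds of cucumber (Cucumis sativus). They were chosen by their descriptions: every gene whose Swiss-Prot or NR protein description contains the word aquaporin was taken, and all 7 also carry the Pfam entry for the major intrinsic protein family, which no other gene of the table carries (7 of 7). Cshec2 mutant buds (genotype Cshec2-/-, 3 libraries) were compared with wild type buds (3 libraries), all collected 7 days before anthesis, and the design text calls the 3 samples of a genotype biological replicates. CsHEC2 is named in the series title as a gene of fruit wart formation. The sources used here do not give how the mutation was made or how many mutant lines the libraries represent.

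Aquaporins are membrane channels that let water, and in some subfamilies other small neutral molecules, cross a membrane along its gradient. Plants have several subfamilies: PIPs of the plasma membrane, TIPs of the vacuole membrane (the tonoplast), NIPs named after a protein of soybean root nodules, and the small basic SIPs. In growing organs the water taken up through PIPs and TIPs fills the expanding vacuole. Of the 7 genes, 5 were described as PIPs, 1 as a TIP and 1 as a NIP, and none was described as a SIP (0 genes). Names such as PIP2-5-like stand for the most similar described protein of Arabidopsis or maize and not for an established identity in cucumber.

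In the mutant buds 6 of the 7 aquaporin genes were lower and 1, the PIP2-5-like gene Csa5G623360, was higher, with the values as deposited; 3 of the 6 changed sign when the libraries were rescaled, as given below. The 3 mutant values and the 3 wild type values did not overlap for any of the 7 genes. The lowest relative to wild type was the NIP2-1-like gene Csa3G826650, at 28.5% of its wild type mean, followed by the 2 PIP1-4-like genes at 30.7% and 34.0%. The PIP2-1-like, TIP2-2-like and PIP2-7-like genes lay at 59.3%, 59.9% and 64.2%. Csa5G623360 lay at 162% of its wild type mean.

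These counts have to be read against the table, which lists genes that the authors had already selected for differing between the same 6 libraries. Of all 1589 genes, 92.7% passed limma at an adjusted p of 0.05, with 74.3% lower and 18.4% higher in the mutant, and the values of 94% did not overlap. The 7 aquaporins, all of which passed, therefore do not stand apart from the table by having passed. Their median log2 change was -0.69, beside -0.77 for all genes of the table. Log2 changes or differences here and below are mutant minus wild type of log2(value + 1), so low-valued genes appear to change less than they do, and adjusted p-values are those of limma over the 1589 genes. Because the table was selected on the same libraries, these p-values are not independent evidence of a change.

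**Figure D1:**
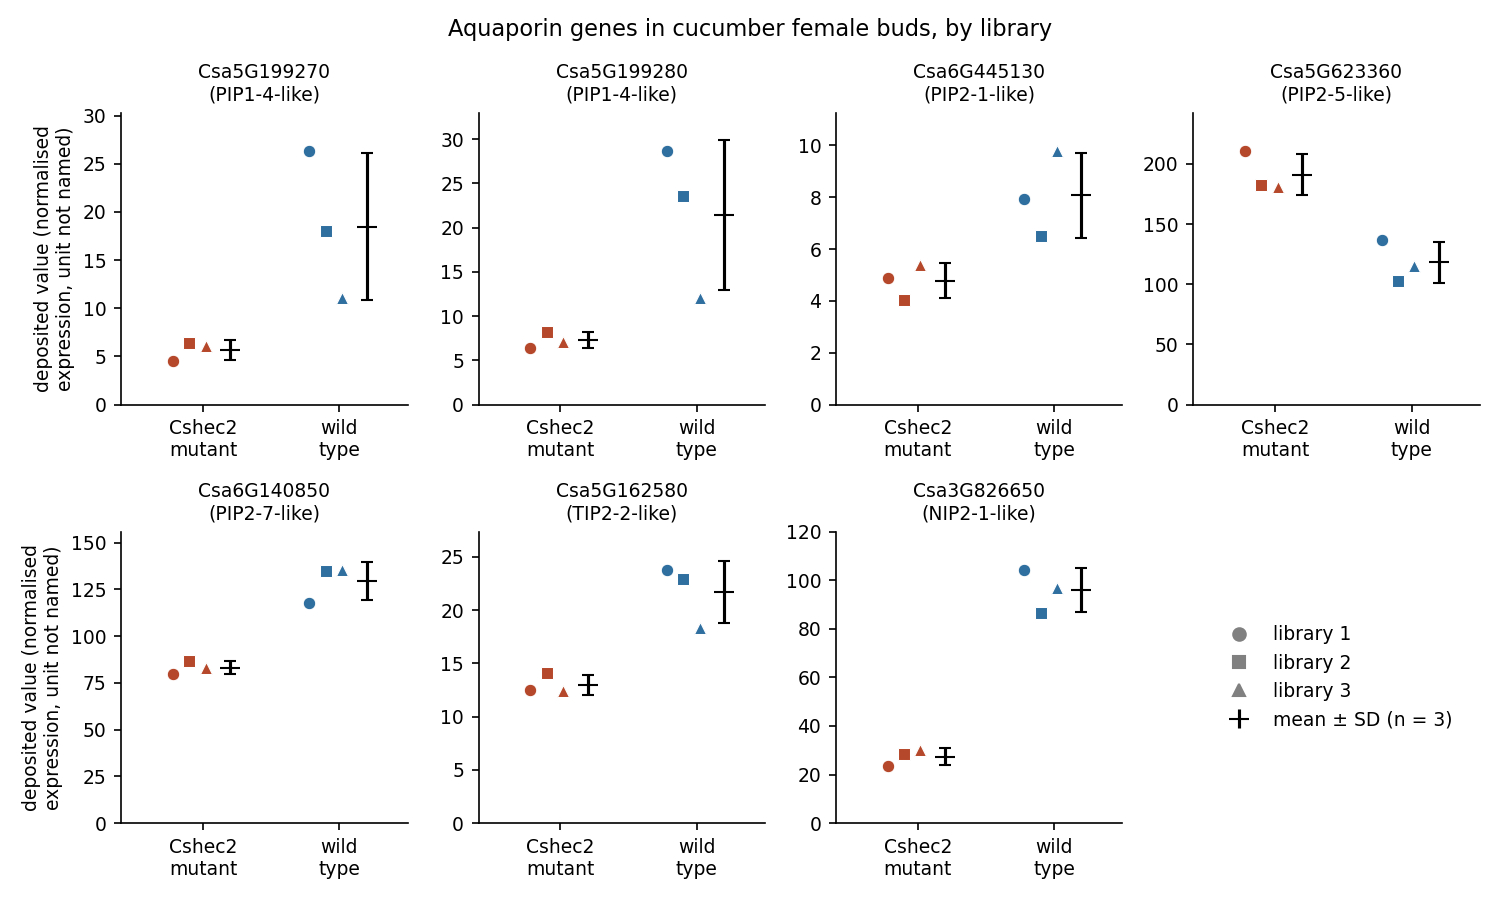
Deposited expression value (linear axis from 0, unit not named by the authors) of each aquaporin gene in each library of Cshec2 mutant and wild type buds, with the mean and SD of 3 libraries. Csa5G623360 sits between 181 and 211 in mutant buds and between 103 and 136 in wild type buds, and the other genes lie lower in the mutant, with wide wild type spread for the PIP1-4-like pair.

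The deposited values are a normalised expression signal. They summed to between 23592 and 24173 over the listed genes in the mutant libraries and to between 41126 and 59342 in the wild type libraries. The highest of these sums was that of wild type library 3, against 41126 and 44182 in wild type libraries 1 and 2. Rescaling the libraries by the median of ratios within the table moved the median log2 change of all genes by 0.74, to -0.02. That scaling is computed over the authors' selection, in which lower genes predominate, and takes calls from lower genes by its construction. It divided the mutant values by 0.716 to 0.736 and the wild type values by 1.28 to 1.57. A gene higher in the mutant as deposited therefore stays higher under this scaling. After it, 14.2% of the genes were lower and 18.4% higher at an adjusted p of 0.05. Among the aquaporins, 1 was then lower (Csa3G826650) and 1 higher (Csa5G623360). In bulk buds, fewer cells of a type and less RNA per cell cannot be told apart.

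The PIP2 proteins are the water channels of the plasma membrane with the highest water permeability in most test systems, and of their 3 listed genes 1 was higher and 2 were lower as deposited, although all 3 lay above 0 after median-of-ratios scaling. Csa5G623360, described as a probable PIP2-5, measured 211, 182 and 181 in mutant libraries 1 to 3, against 136, 103 and 115 in wild type libraries 1 to 3. The lowest mutant value was 1.32-fold above the highest wild type value. Its mean was 191 ± 17.0 in mutant buds and 118 ± 16.9 in wild type buds (SD, n = 3 each), which gave a log2 difference of 0.69 (SE 0.16; adjusted p = 0.00842 by limma). Median-of-ratios scaling gave 1.62 for this gene (limma adjusted p = 0.000618). That scaling keeps a higher gene higher by its construction, so the larger value adds no support.

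Csa6G140850, described as PIP2-7, measured 79.5, 86.5 and 83.0 in the mutant libraries, against 118, 135 and 136 in the wild type libraries. It was the most even of the 7 genes, with a coefficient of variation of 4.24% in mutant buds and 7.79% in wild type buds. The log2 change was -0.63 (SE 0.13, limma adjusted p = 0.00657), and it became 0.29 after median-of-ratios scaling (limma adjusted p = 0.196). The sign thus differed between the values as deposited and the rescaled values. Because the scaling factors come from a list in which lower genes predominate, a moderately lower gene is moved upward by construction. The reversal is therefore no evidence that this gene was higher in the mutant. The authors' own comparison lists it as lower, with a log2 fold change of -0.68 and an FDR of 1.18e-09. That comparison used the same libraries and selected the genes of the table, so it adds no separate support.

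Csa6G445130, described as PIP2-1, measured 4.90, 4.05 and 5.40 in the mutant libraries, against 7.95, 6.49 and 9.78 in the wild type libraries. The gap between the genotypes was narrow, since the lowest wild type value was 1.20-fold above the highest mutant value. The log2 change was -0.64 (SE 0.20, limma adjusted p = 0.0198) as deposited and 0.16 after median-of-ratios scaling (limma adjusted p = 0.55). It also did not pass without mutant library 1 (limma adjusted p = 0.0524) or without mutant library 2 (limma adjusted p = 0.0761). It was the only one of the 7 genes to lose its call when a single library was left out.

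PIP1 proteins carry little water on their own in many tests, and in maize they reach the plasma membrane together with PIP2 partners. Both PIP1 genes of the table, Csa5G199270 and Csa5G199280, were described as a probable PIP1-4. Csa5G199270 measured 4.53, 6.39 and 6.08 in the mutant libraries, against 26.3, 18.1 and 11.1 in the wild type libraries. Csa5G199280 measured 6.44, 8.26 and 7.13 in the mutant libraries, against 28.7, 23.6 and 12.1 in the wild type libraries. In both genes wild type library 1 was the highest and wild type library 3 the lowest, and mutant library 1 was the lowest and mutant library 2 the highest.

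The means of Csa5G199270 were 5.67 ± 1.00 in mutant buds and 18.5 ± 7.63 in wild type buds, which gave a log2 difference of -1.48 (SE 0.31; adjusted p = 0.00611 by limma). Those of Csa5G199280 were 7.28 ± 0.923 in mutant buds and 21.4 ± 8.50 in wild type buds, which gave a log2 difference of -1.36 (SE 0.31; adjusted p = 0.008 by limma). After median-of-ratios scaling the log2 changes were -0.65 and -0.51 and neither gene passed (limma adjusted p = 0.229 and 0.343). The wild type spread was wide. Wild type library 1 was 2.38-fold above wild type library 3 in each gene, and 5.41% of the genes of the table had library 1 at least 2-fold above library 3. Both genes still passed when any one library was left out, with log2 changes from -1.79 to -1.20 for Csa5G199270 and from -1.71 to -1.12 for Csa5G199280.

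The PIP1-4-like genes have neighbouring identifiers and the same Swiss-Prot description, and their profiles over the 6 libraries were close. The mean absolute difference between their centred log2(value + 1) profiles was 0.115, which made Csa5G199280 the gene at rank 2 of 1588 for likeness to Csa5G199270, and Csa5G199270 the gene at rank 3 for likeness to Csa5G199280. This comparison was chosen after their values had been seen. The sources used here do not say how reads were divided between such similar genes, so their separate values are uncertain, and they may not be independent measurements. By the size of the difference the next closest pair of aquaporins was Csa5G162580 and Csa6G140850, at 0.125.

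TIP2 proteins conduct water, and also ammonia, across the tonoplast. Csa5G162580, described as a probable TIP2-2, measured 12.5, 14.1 and 12.4 in the mutant libraries, against 23.8, 22.9 and 18.4 in the wild type libraries. All mutant values lay below all wild type values, by 1.30-fold at the narrowest. Its mean was 13.0 ± 0.961 in mutant buds and 21.7 ± 2.91 in wild type buds, which gave a log2 difference of -0.69 (SE 0.16; adjusted p = 0.00801 by limma). After median-of-ratios scaling it was 0.18 (limma adjusted p = 0.55). The change of this tonoplast gene was close in size to that of the PIP2-1-like and PIP2-7-like plasma membrane genes, at -0.69, -0.64 and -0.63 with SEs of 0.16, 0.20 and 0.13. All 3 lay within 0.14 of the table's median, on the log2 scale.

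NIPs carry small neutral solutes more than water, and NIP2 proteins of rice and maize are channels for silicic acid. In cucumber, silica deposited at the fruit surface forms the whitish coat called bloom. Csa3G826650, described as maize NIP2-1, measured 23.3, 28.3 and 30.3 in the mutant libraries, against 104, 86.4 and 96.8 in the wild type libraries. The lowest wild type value was 2.85-fold above the highest mutant value, the widest gap among the 7 genes. Its log2 change was -1.78 (SE 0.16, limma adjusted p = 0.000753), and 8.56% of the genes of the table had a lower one. It was the single aquaporin whose lower call held after median-of-ratios scaling, at -0.87 (limma adjusted p = 0.00673). It was also the only one of the 7 whose log2 values varied more in the mutant than in wild type, with SDs of 0.19 in mutant buds and 0.14 in wild type buds. In 78.5% of all genes the wild type SD was the larger. The authors' deposited table gives it an FDR of 2.51e-36, at rank 15 by FDR.

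**Figure D2:**
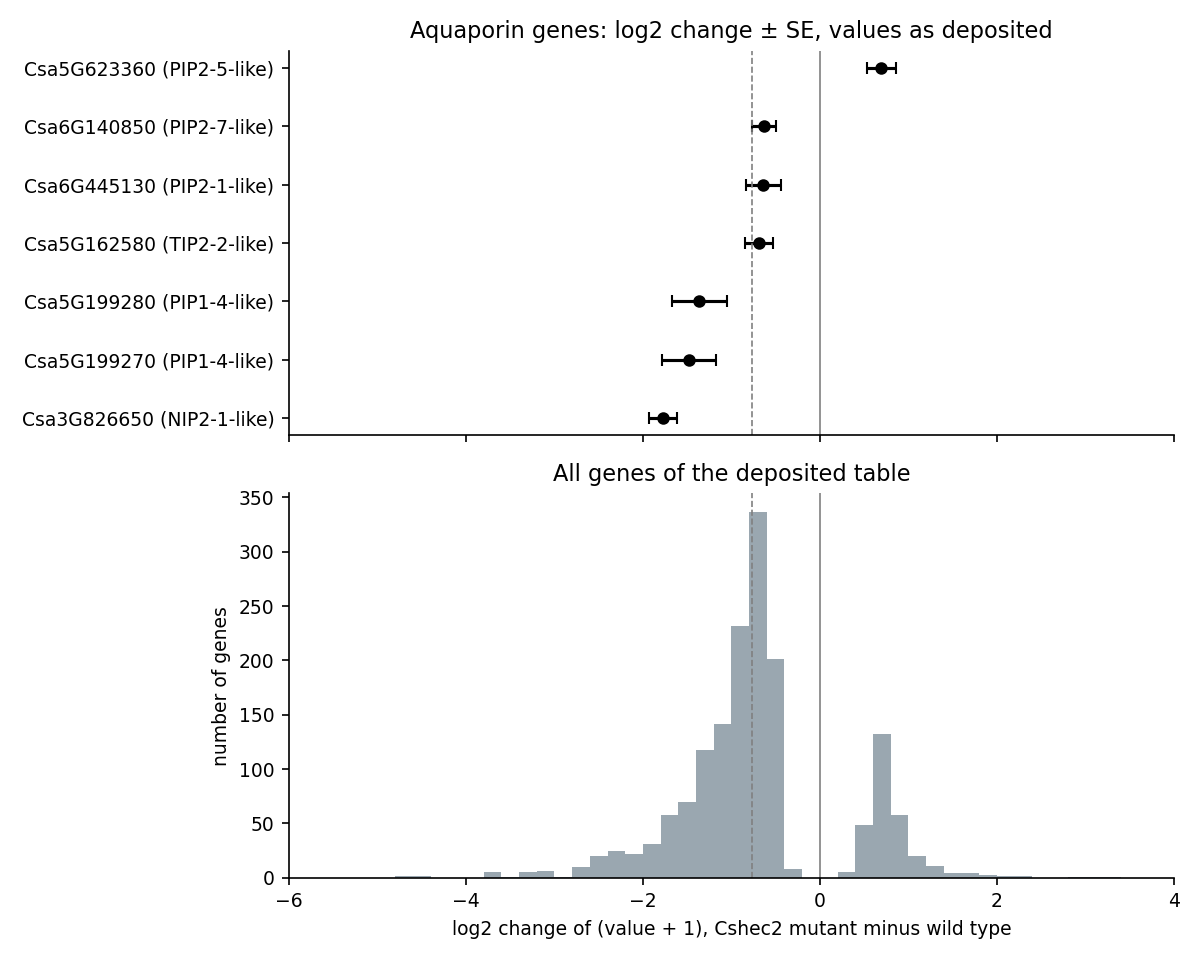
Upper plot, log2 change of (value + 1), mutant minus wild type, of each aquaporin gene with its SE (n = 3 libraries each). Lower plot, the number of genes of the table at each log2 change. The dashed line marks the table's median of -0.77, and Csa3G826650 at -1.78 and the PIP1-4-like pair at -1.48 and -1.36 lie to its left, whereas Csa5G623360 lies at 0.69.

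The authors' deposited table gives the same directions, with 6 aquaporins listed as lower and 1 as higher, beside 1296 lower and 293 higher among all genes. The sign of the authors' log2 fold change matched the deposited means in all 1588 genes that have one. The shared directions therefore add no separate support. Its log2 fold changes for the aquaporins run from -1.78 for Csa3G826650 to 0.61 for Csa5G623360. The value of Csa5G623360 is near the smallest absolute value in the authors' deposited table, 0.585, which corresponds to 1.5-fold. The PIP1-4-like genes have -1.44 and -1.34 in the authors' deposited table, the PIP2-1-like gene -0.73, the PIP2-7-like gene -0.68 and the TIP2-2-like gene -0.76.

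**Figure D3:**
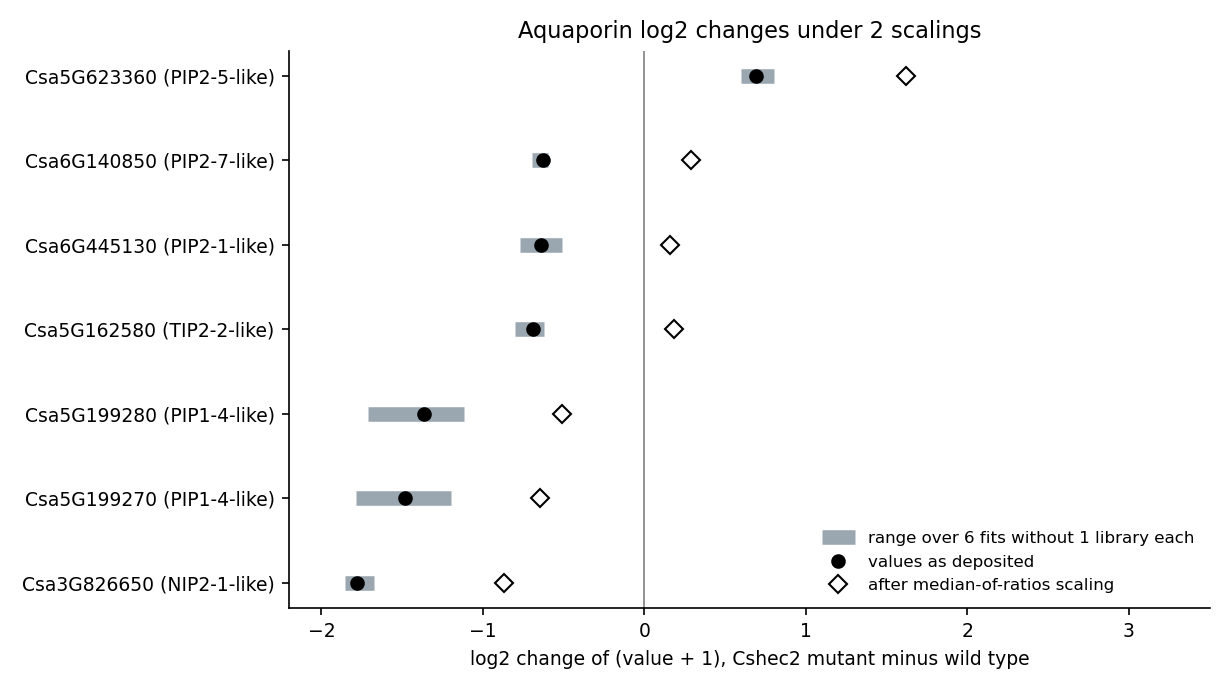
Log2 change of (value + 1), mutant minus wild type, of each aquaporin gene with the values as deposited (filled circles), after median-of-ratios scaling over the table (open diamonds) and as a range over 6 fits that each leave out 1 library (grey bars). The diamonds of the PIP2-7-like, PIP2-1-like and TIP2-2-like genes lie above 0, at 0.29, 0.16 and 0.18, and the remaining 4 genes keep their side of 0.

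A ratio of 2 genes within a library does not depend on how the libraries are scaled. The log2 ratio of Csa5G623360 to each other aquaporin, taken of the deposited values with nothing added, was therefore compared between the genotypes. Its level depends on gene length, which is not known here, so only its difference between genotypes is described. The ratio was higher in all 3 mutant libraries than in all 3 wild type libraries for each of the 6 other genes. This separation had to follow, because Csa5G623360 was higher and the 6 others lower as deposited, each without overlap. It is therefore not a further result, and only the sizes of the differences add to the values above.

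Against the other PIP2 genes, the log2 ratio of Csa5G623360 to Csa6G140850 was 1.41, 1.07 and 1.12 in the mutant libraries, against 0.21, -0.39 and -0.23 in the wild type libraries, a difference in means of 1.34. The log2 ratio of Csa5G623360 to Csa6G445130 was 5.43, 5.49 and 5.06 in the mutant libraries, against 4.10, 3.99 and 3.56 in the wild type libraries, a difference of 1.44. The PIP2 genes thus changed unequally whichever scaling was used. The differences were 2.33 and 2.17 against the PIP1-4-like genes Csa5G199270 and Csa5G199280, 1.43 against the TIP2-2-like gene Csa5G162580 and 2.51 against the NIP2-1-like gene Csa3G826650. These differences are given as descriptions, without a test, because the genes were chosen with their changes known.

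**Figure D4:**
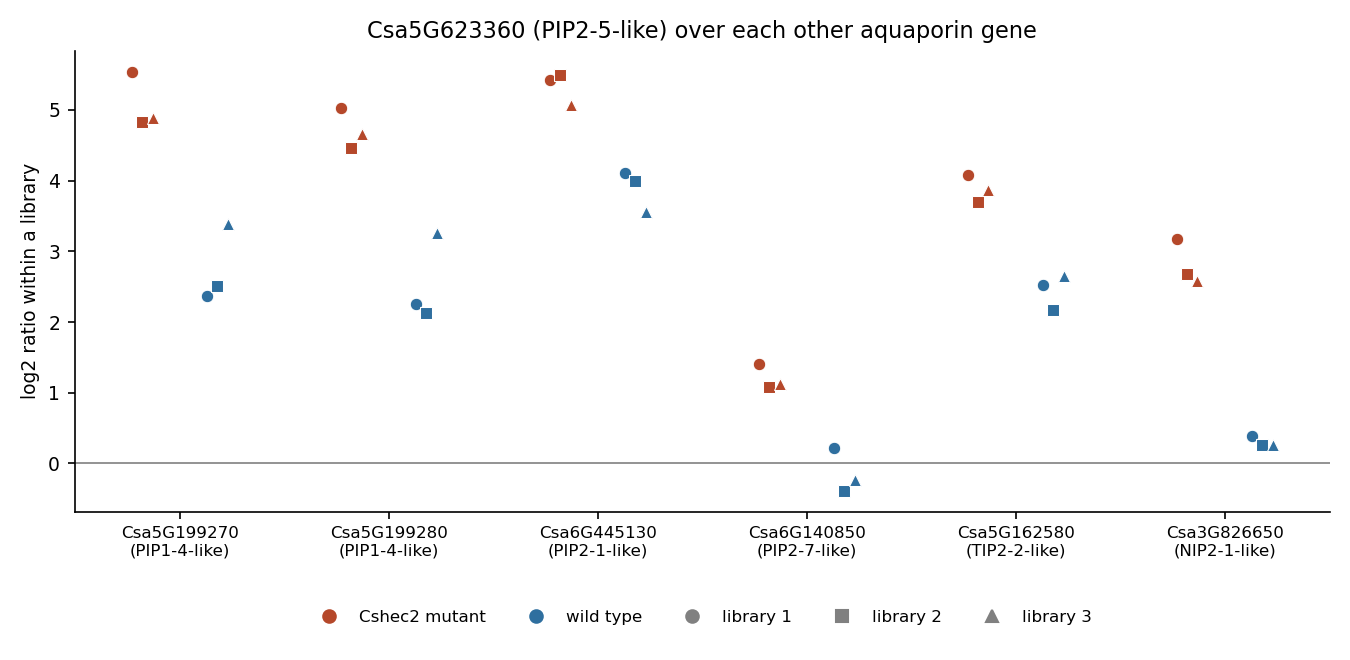
Log2 ratio of Csa5G623360 (PIP2-5-like) to each other aquaporin gene within each library of Cshec2 mutant and wild type buds. In every one of the 6 pairs the mutant libraries lie above the wild type libraries, by a mean of 1.34 for Csa6G140850 and 2.51 for Csa3G826650. The separation itself follows from the directions of the deposited values.

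Summed over the 5 PIP genes, the values as deposited overlapped between the genotypes, at 306, 287 and 282 in the mutant libraries and 317, 286 and 284 in the wild type libraries. Without Csa5G623360, left out because it was higher, the sums of the remaining 4 PIP genes were 95.4, 105 and 102 in the mutant libraries. They were 181, 183 and 168 in the wild type libraries. This separation had to follow, because each of the 4 genes was lower without overlap as deposited, and it is not a further result. Both comparisons depend on the scaling: with median-of-ratios scaling, tried after the data had been seen, the sums of all 5 were 428, 398 and 383 in the mutant libraries and 248, 217 and 181 in the wild type libraries, with no overlap, and those of the 4 genes overlapped. As deposited, the summed PIP1 values were 11.0, 14.7 and 13.2 in the mutant libraries and 55.0, 41.6 and 23.1 in the wild type libraries. That separation likewise had to follow, because both PIP1 genes were lower without overlap. The summed PIP2 values were 295, 273 and 269 in the mutant libraries and 262, 244 and 261 in the wild type libraries. Such sums weight each gene by its deposited value, whose unit is not named, and leave out any PIP gene that the authors did not list.

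The profiles most like those of 2 of the aquaporins were looked for among the other genes of the table, by the mean absolute difference between centred log2(value + 1) profiles over the 6 libraries. For the NIP2-1-like gene Csa3G826650 the nearest 3 were Csa6G519620, described as a putative Myb family transcription factor, Csa5G643370, described as trichome birefringence-like 19, and the chloroplast lipoxygenase gene Csa4G286950, at differences of 0.060, 0.060 and 0.075. Csa5G643370 measured 4.17, 6.23 and 7.07 in the mutant libraries, against 24.5, 19.8 and 22.1 in the wild type libraries. Csa6G519620 measured 1.24, 1.69 and 2.19 in the mutant libraries, against 8.64, 6.64 and 8.50 in the wild type libraries. In these and in Csa4G286950, as in Csa3G826650, mutant library 1 was the lowest of the mutant libraries and wild type library 1 the highest of the wild type libraries. Choosing genes by likeness over these libraries favours such a shared order. Wild type library 1 was the highest of the wild type libraries in 38.6% of all genes of the table, and wild type library 3 in 51.6%.

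For the PIP2-1-like gene Csa6G445130 the nearest 3 were Csa5G589380, of which the descriptions name no function, Csa7G432490, described as cucumber peeling cupredoxin, and Csa5G178700, described as the exocyst subunit EXO70H1. Their differences were 0.059, 0.066 and 0.075. Csa7G432490 lay at 32.6% of its wild type mean and Csa6G445130 at 59.3%, although their log2(value + 1) changes were -0.74 and -0.64, since the added 1 compresses the low values of Csa7G432490 (0.485 ± 0.171 in mutant buds and 1.49 ± 0.327 in wild type buds). Likeness of this kind is a description over 6 libraries that share 1 comparison.

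Other genes of water balance and turgor were looked up by keyword, and their counts stand beside the 74.3% lower and 18.4% higher of the whole table; values with ± are means and SDs of 3 libraries. Proton pumps energise the membranes across which solutes and then water move, and all 3 listed were lower in the mutant, with 1 still lower after median-of-ratios scaling. That gene, Csa2G033950, described as the vacuolar pyrophosphate-energised proton pump, measured 0.575, 0.699 and 0.964 in the mutant libraries, against 3.36, 3.17 and 3.56 in the wild type libraries. Its log2 change was -1.33 (SE 0.14, limma adjusted p = 0.000897). The V-type proton ATPase subunit gene Csa2G364570 measured 2.03 ± 0.229 in mutant buds and 3.95 ± 0.447 in wild type buds, and the plasma membrane ATPase gene Cucumis_sativus_newGene_1262 averaged 71.3 ± 3.84 in mutant buds and 116 ± 23.6 in wild type buds.

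The keywords for potassium, sodium and anion transport, which sets the osmotic gradient, matched 8 genes, all described as cation channels, transporters or exchangers. Of the 8, 2 were higher, 5 fell and 1 missed the threshold, and with median-of-ratios scaling there were 2 higher and 0 lower. The higher ones were Csa1G448920, described as the inward potassium channel KAT1, at 3.37 ± 0.251 in mutant buds and 1.38 ± 0.611 in wild type buds, and Csa4G294410, described as a cation/proton antiporter, at 0.381 ± 0.0686 in mutant buds and 0.137 ± 0.0659 in wild type buds. Among the lower ones, the sodium/proton exchanger gene Csa1G573610 measured 37.5 ± 3.21 in mutant buds and 71.8 ± 24.9 in wild type buds, and the potassium transporter gene Csa4G007060 averaged 0.425 ± 0.0546 in mutant buds and 0.841 ± 0.206 in wild type buds.

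Of 14 genes for expansins and xyloglucan endotransglucosylases, which loosen or rebuild the wall of growing cells, 1 was higher, 10 fell and 3 missed the threshold, and with median-of-ratios scaling there were 1 higher and 1 lower. Csa1G422480, a xyloglucan endotransglucosylase gene, was the lower one after scaling (log2 change -2.33), at 7.15, 9.02 and 10.4 in the mutant libraries, against 66.8, 84.5 and 126 in the wild type libraries. The expansin-A5-like gene Csa5G636630 measured 4.52, 5.62 and 7.76 in the mutant libraries, against 41.3, 31.5 and 16.5 in the wild type libraries. As in the PIP1-4-like genes, wild type library 1 was the highest and wild type library 3 the lowest of the wild type libraries. The expansin-A4-like gene Csa1G522540 measured 86.8 ± 3.85 in mutant buds and 166 ± 33.1 in wild type buds, and Csa3G900960, of the xyloglucan endotransglucosylase family, had 2.26, 3.73 and 4.02 in the mutant libraries, against 11.8, 8.04 and 10.2 in the wild type libraries.

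All 7 genes described as dehydrins, late embryogenesis abundant proteins or other dehydration-related proteins were lower, and none was called after median-of-ratios scaling (0 higher and 0 lower by limma), where their median log2 change was -0.04. The dehydrin gene Csa6G358710 measured 81.1 ± 7.71 in mutant buds and 133 ± 9.08 in wild type buds, and the LEA14-like gene Csa3G121560, of the same list, averaged 1.47 ± 0.293 in mutant buds and 3.87 ± 0.488 in wild type buds. RD22 and the ERD proteins are named for genes of Arabidopsis that respond to dehydration. Csa3G888570, described as RD22, measured 29.9 ± 2.48 in mutant buds and 59.1 ± 9.78 in wild type buds. Csa2G270210, described as EARLY-RESPONSIVE TO DEHYDRATION 7, measured 8.89 ± 1.53 in mutant buds and 17.6 ± 1.68 in wild type buds.

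Of 3 genes related to proteins that act on aquaporins in other plants, 2 were higher and 1 was lower, and with median-of-ratios scaling there were 2 higher and 0 lower. Calcium-dependent protein kinases can phosphorylate PIP2 proteins, as in spinach. The gene described as calcium-dependent protein kinase 8, Csa6G439940, had values of 17.7, 19.3 and 17.5 in the mutant libraries, against 3.66, 3.40 and 3.17 in the wild type libraries. The gene described as calcium-dependent protein kinase 3, Csa3G238180, averaged 3.48 ± 0.686 in mutant buds and 1.47 ± 0.358 in wild type buds. The pepper ubiquitin ligase RMA1H1 lowers the amount of a PIP2 protein when placed in Arabidopsis. Csa6G517320, described as RMA1H1, measured 14.6, 15.7 and 14.0 in the mutant libraries, against 18.7, 22.1 and 40.8 in the wild type libraries, and its log2 difference of -0.76 (adjusted p = 0.0372, limma) was 0.13 with the rescaled libraries. Whether any of these kinases or this ligase acts on the aquaporins measured here was not tested.

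Genes looked up as markers of organs or tissues of the bud also differed between the genotypes. The keywords for carpel and ovule genes matched 3 genes of the table, and all 3 were higher in the mutant as deposited. Their summed values ran from 512 to 550 in mutant buds and from 276 to 314 in wild type buds. All 3 stayed higher with median-of-ratios scaling, which keeps higher genes higher by its construction. One was the gene like CRABS CLAW, a regulator of carpel development, Csa5G606780, at 251 ± 16.5 in mutant buds and 138 ± 29.3 in wild type buds. The other two, Csa5G160210 and Csa2G006820, are described as YABBY 1 and YABBY 5, regulators of lateral organs in general and not markers of the carpel, and Csa5G160210 alone measured 274 ± 9.22 in mutant buds and 145 ± 13.7 in wild type buds. Of 7 vascular markers, 3 were higher, 3 fell and 1 missed the threshold, and with median-of-ratios scaling there were 3 higher and 0 lower. Their sums ran from 122 to 129 in mutant buds and from 145 to 234 in wild type buds. The 3 higher genes were all described as SIEVE ELEMENT OCCLUSION B. The genes with the highest values in the sum, both described as lectins, had lower means in the mutant. Csa7G056500 measured 64.4 ± 5.45 in mutant buds and 105 ± 26.4 in wild type buds. Csa1G542510, which missed the threshold, averaged 29.0 ± 6.11 in mutant buds and 48.6 ± 18.2 in wild type buds. The 3 green tissue markers were lower, against 0 after median-of-ratios scaling, with sums from 109 to 125 in mutant buds and from 165 to 213 in wild type buds. No gene of the table matched the stamen, tapetum and pollen keywords (0 genes), which says nothing of genes outside the table. The part of these markers in the aquaporin differences was not tested. No description named HECATE (0 genes), so CsHEC2 expression was not analysed here as a check on the labels.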

How the data were processed

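RNA from female buds was sequenced from 3 Cshec2 mutant and 3 wild type samples, prepared from total RNA with an Illumina library kit, per the labels' protocols. Per the submitters' processing notes, the tools were DESeq2, HISAT2 and HISAT, with no version or role stated. The sources used here do not give the genome build or annotation. The values deposited by the authors are a normalised expression signal per gene and library, with no unit in the header. They are not counts, so depth is unknown and no interval that needs it is given. Per the file headers, the table lists genes that differ between the genotypes; its FDR column holds the authors' own adjusted p-value and its log2FC column the authors' log2 fold change. One gene has dashes in both.

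Members and gene lists were chosen with earlier results of these data known. Limma 3.58.1 in R 4.3.3, with a variance trend, was fitted to log2(value + 1) of all 1589 genes without a filter. Benjamini-Hochberg adjustment over all of them and a threshold of 0.05 were used. The fit was also run on simulated data in which most genes did not change. A selected table differs from that setting, so the simulation does not bear on the p-values given here. The genes named were all 7 aquaporins, the 3 nearest profiles of 2 of them, and up to 4 passing genes per list, by smallest p-value; marker lists were looked up by keyword. Alternatives were median-of-ratios scaling, pseudocounts of 0.1 and 0.5, a mean of at least 1, no variance trend, the replicate number as a block, and each library left out. None of the identifiers matched the RefSeq gene table (0 genes), so no coordinates or sequences are printed.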

Additional observations from a re-analysis of the deposited data

How the results depend on the processing

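Of the aquaporin results, those with median-of-ratios scaling differed most: 1 gene was lower in place of 6, beside 225 in place of 1180 among all genes of the table. The log2 changes were reversed for Csa6G445130 (0.16), Csa6G140850 (0.29) and Csa5G162580 (0.18), and no longer passed for Csa5G199270 (-0.65) and Csa5G199280 (-0.51). The log2 ratio of summed values, mutant over wild type, was 0.90 in place of -0.02 for all PIP genes, -0.74 in place of -1.62 for PIP1, 1.05 in place of 0.13 for PIP2 and 0.10 in place of -0.82 for the PIP genes without Csa5G623360, in an alternative added after seeing the data. That scaling centres a table of selected genes, so lost calls follow from its construction and do not decide whether a gene was lower.

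With each of the 6 libraries left out in turn, 5 to 6 aquaporins were lower and 1 was higher. Among all 1589 genes of the table, 823 to 1236 were lower and 263 to 289 higher in these fits. Csa6G445130 ranged from -0.77 to -0.51 and did not pass without mutant library 1 or 2; the cause was not tested. All other aquaporins passed in each of these fits. Pseudocounts of 0.1 and 0.5, a mean of at least 1 and no variance trend changed no aquaporin call. With only wild type library 1 as control, an alternative chosen after seeing the data, the log2 changes ran from -2.05 for Csa5G199270 to 0.48 for Csa5G623360. That fit takes its spread from the mutant libraries alone, so no calls are given for it.

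The replicate number as a block left 6 aquaporins lower and 1 higher (1104 lower and 288 higher of all genes). Same-numbered libraries did not deviate together (correlations across genes of -0.09, -0.04 and -0.18). With so few libraries and a selected table, these values cannot show whether the samples were paired. With 3 libraries a genotype and unknown depth, changes of genes with low values are the least certain.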
